A study of Mus musculus with 10 samples.

Results

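The semaphorins, their receptors the plexins and neuropilins, and the collapsin response mediator proteins (CRMPs) were followed in cultured mouse neurons treated with SP600125, which blocks JNK, the kinase family that phosphorylates JUN. Members were taken by symbol: every gene whose name starts with Sema3 to Sema7, Plxn or Crmp, together with Nrp1, Nrp2 and Dpysl2 to Dpysl5. This gave 36 genes of the 19938 measured: 20 semaphorins, 2 neuropilins, 9 plexins and 5 CRMPs. The cells, labelled as terminally differentiated neurons of the mixed strain 129Sv-C57Bl/6, received SP600125 at 25 µM or the solvent DMSO, in both cases 3 times with 2 hours between additions, and their total RNA was hybridised to Affymetrix whole-transcript arrays. Each group held 5 biological replicates, a to e, of which a and b carry agent batch 1 and c, d and e agent batch 2 in the labels, called drug batches here. The labels name no transgene or deletion, the same agent batches were used for both groups, and the time from the last addition to harvest is not stated there. Whether the replicates were separate cultures is not stated either, and the p-values then reflect the spread of these arrays alone, part of which may be technical.

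Semaphorins are guidance cues that turn growing axons and shape dendrites and synapses. Class 3 semaphorins are secreted and mostly act through neuropilins, which bind the ligand, and class A plexins, which carry the signal into the cell. Class 4, 5 and 6 semaphorins span the membrane, and the class 7 semaphorin is anchored to it by a lipid. Plexins act on small GTPases through a domain inside the cell, and CRMPs are cytosolic tubulin-binding proteins, first found as mediators of growth cone collapse by Sema3a.

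Array values are log2 expression values as deposited, 1 probe set per gene. A gene was called above the array's background where its DMSO mean exceeded 5.26, the 95th percentile of the DMSO means of 1027 olfactory receptor genes. By this measure 34 of the 36 genes were above background, and Sema3d (5.22) and Plxnb3 (4.89) were not. Sema3g (5.27) lay just above the limit. All 12 neuronal markers were above it as well, and so were 9 of 10 astrocyte, 8 of 10 fibroblast and endothelial and 6 of 9 oligodendrocyte lineage markers. Of 8 microglial markers 3 were, with Aif1, Itgam, Csf1r, P2ry12 and Ptprc under the limit. In such bulk RNA, fewer cells of a type and less RNA per cell cannot be told apart. The b arrays stood apart from the others of their group: the mean of the neuronal markers was 8.82 on DMSO replicate b against 9.17 to 9.19 on the other DMSO arrays, and 9.06 on SP600125 replicate b against 8.45 to 8.58 on the other SP600125 arrays. Results without both b arrays are therefore also given for the 36 genes as a set and, in the text, for some single genes. These are Sema3c, Sema4g, Sema7a, Plxnb2, Crmp1 and Dpysl5. For the other genes the change without both b arrays is shown only in the plot of log2 changes by class. The lack of such a value in the text does not mean that leaving out these arrays made no difference.

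The comparison of SP600125 with DMSO asked which of these genes differed after this compound. Effects through JNK and effects through other targets of the compound cannot be told apart in this design. Most of the family was lower. Sema3c, a secreted cue, fell the most, with a log2 change of −0.74 (SE 0.12, 5 arrays in each group), a 1.67-fold decrease, and the receptor Plxna4 (−0.60, SE 0.10), Sema7a (−0.60, SE 0.12) and Crmp1 (−0.60, SE 0.12) followed. Both neuropilins, all 4 class A plexins and all 5 CRMPs fell. Sema3b and Sema3g rose.

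With limma and drug batch as a term, 23 of the 36 genes (63.9%) fell at a Benjamini-Hochberg adjusted p under 0.05, against 29.9% of all genes tested. A further 2 (5.56%) rose, against 17% of all genes, and 11 did not pass. The median change of the 36 was −0.29, against −0.03 over all genes. Among genes above background, 22 of 34 members (64.7%) fell, against 46.5% of the 12493 such genes, and 2 rose, against 7.8%. All 5 SP600125 arrays lay below all 5 DMSO arrays for 11 of the 36 genes, against 16.4% of all genes, and above them for 1, Sema3g, against 6.65%. The split of 23 falls to 2 rises was 18 to 4 after quantile normalization, 29 to 1 after centring each array on its median and 16 to 4 after cyclic loess. Of all genes, 22.5%, 43.1% and 17.7% fell under these 3 scalings and 7.51%, 7.52% and 9.44% rose. The share of the 36 genes that rose rests on few genes. It was 5.56% (2 genes) as deposited, against 17% of all genes. After quantile normalization and cyclic loess it was 11.1% (4 genes), against 7.51% and 9.44%. Whether these shares differ was not tested. Median centring moved the median change of all genes from −0.03 to −0.13, and that of the 36 genes to −0.40.

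**Figure D1:**
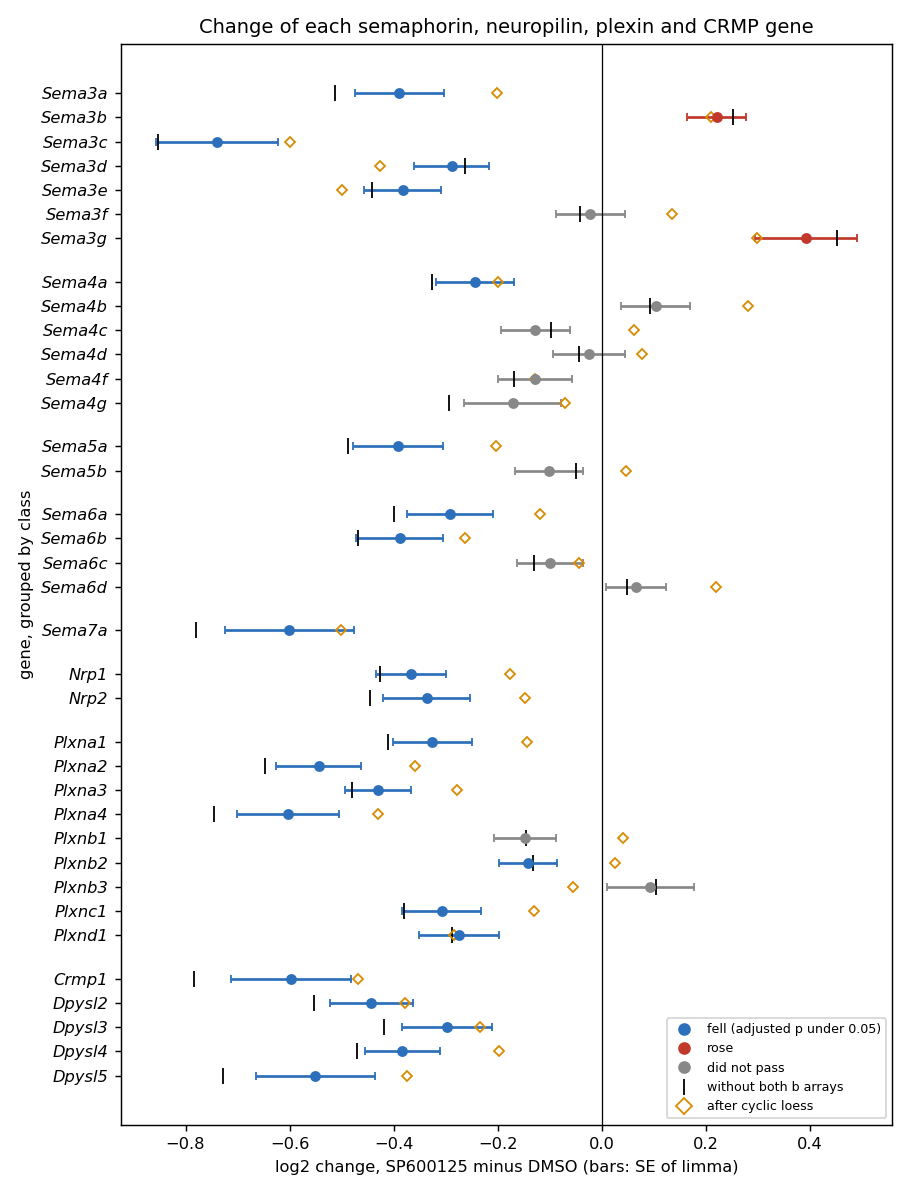
Log2 change of each of the 36 genes, SP600125 minus DMSO, grouped by class; filled points are the changes with drug batch as a term, bars their SE, vertical ticks the change without both b arrays and open diamonds the change after cyclic loess. The CRMPs, neuropilins and class A plexins all sit left of 0 under each of these settings. Plxnb1, Plxnb2, Plxnb3, Sema3f, Sema4c, Sema4d and Sema5b move across 0 after cyclic loess.

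Of the 7 class 3 semaphorins, 4 fell, 2 rose and Sema3f did not pass. Sema3c, a ligand of neuropilins, read 7.57, 6.77, 7.50, 7.38 and 7.65 on DMSO replicates a to e and 6.53, 6.48, 6.85, 6.70 and 6.62 on the SP600125 replicates in the same order. DMSO replicate b was low and lay within the SP600125 range, and the groups did not overlap inside either drug batch. Its adjusted p was 0.000431, and without both b arrays the fall was 0.85 (SE 0.08). Sema3a, the founding collapsin that repels axons through Nrp1, read 8.40, 8.12, 8.34, 8.37 and 8.45 after DMSO and 7.87, 8.23, 7.94, 7.87 and 7.84 after SP600125. SP600125 replicate b was the high one here, above DMSO replicate b, so that the groups overlapped. Sema3a fell by 0.39 (SE 0.09, adjusted p = 0.00282). Sema3e, which binds Plxnd1 without a neuropilin, fell by 0.38 (SE 0.07) with no overlap between the groups, and Sema3d, which was at the background, by 0.29 (SE 0.07).

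Sema3g, a neuropilin ligand, went the other way. Its DMSO arrays read 5.09, 5.44, 5.25, 5.52 and 5.04 and its SP600125 arrays 5.89, 5.60, 5.67, 5.60 and 5.53. The groups did not overlap, although the gap between DMSO replicate d and SP600125 replicate e was narrow. The rise was 0.39 (SE 0.10, adjusted p = 0.00564). Sema3b, another secreted member, read 5.90, 6.04, 5.82, 5.84 and 5.83 after DMSO and 6.22, 6.13, 6.03, 6.13 and 6.01 after SP600125. DMSO replicate b was the highest of its group and overlapped the lowest SP600125 arrays, while the groups were apart inside each drug batch. Sema3b rose by 0.22 (SE 0.06, adjusted p = 0.00705) and did not pass after centring each array on its median (0.12). Sema3f, a ligand of Nrp2, stood at −0.02 (SE 0.07, adjusted p = 0.808), and its value was 0.13 after cyclic loess.

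The 250 bases before the start of Sema3c, the gene with the largest fall, and of Sema3g, the gene with the largest rise, are given from RefSeq (GRCm38.p6), at chr5:17574566-17574815 and chr14:31217623-31217872, both on the + strand. Capitals mark the GC box GGGCGG on either strand.
Sema3c: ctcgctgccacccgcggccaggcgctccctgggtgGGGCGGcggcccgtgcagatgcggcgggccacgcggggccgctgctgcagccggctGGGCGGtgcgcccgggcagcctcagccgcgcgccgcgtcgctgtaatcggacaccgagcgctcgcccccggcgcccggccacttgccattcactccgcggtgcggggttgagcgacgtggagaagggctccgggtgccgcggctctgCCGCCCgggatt
Sema3g: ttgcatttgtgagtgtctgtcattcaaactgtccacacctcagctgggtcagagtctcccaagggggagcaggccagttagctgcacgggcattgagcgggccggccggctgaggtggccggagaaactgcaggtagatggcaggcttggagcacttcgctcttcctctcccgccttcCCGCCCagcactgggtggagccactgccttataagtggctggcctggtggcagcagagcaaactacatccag
The Sema3c window held 3 GC boxes and was 78.4% G and C, and the Sema3g window held 1 and was 60.4% G and C.

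Class 4 semaphorins, several of which signal through class B plexins, had a median change of −0.13. Of the 6, Sema4a fell by 0.24 (SE 0.07, adjusted p = 0.0164) and 5 did not pass. Sema4b (0.10), Sema4c (−0.13), Sema4d (−0.02), Sema4f (−0.13) and Sema4g (−0.17) all had adjusted p-values of 0.123 or more, up to 0.787 for Sema4d, the ligand of Plxnb1. Sema4g read 6.64, 6.51, 6.85, 6.90 and 7.03 after DMSO and 6.58, 6.83, 6.61, 6.53 and 6.51 after SP600125. SP600125 replicate b lay above DMSO replicate b by 0.32, against the order of every other replicate letter. Without both b arrays Sema4g fell by 0.29 (SE 0.07, adjusted p = 0.00794). After cyclic loess Sema4b was called higher (0.28, adjusted p = 0.00624).

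Sema5a, one of the class 5 semaphorins with thrombospondin repeats outside the cell, fell by 0.39 (SE 0.09) with all SP600125 arrays below all DMSO arrays, while Sema5b stood at −0.10 (SE 0.07, adjusted p = 0.215). In class 6, whose members bind class A plexins directly, Sema6a (−0.29, SE 0.08) and Sema6b (−0.39, SE 0.08) fell, and Sema6c (−0.10, SE 0.06) and Sema6d (0.07, SE 0.06) did not pass. Sema6d was called higher after cyclic loess (0.22, adjusted p = 0.00628). The only class 7 member, Sema7a, which acts through the integrin subunit Itgb1 and through Plxnc1, read 7.08, 6.62, 7.08, 7.01 and 7.11 after DMSO and 6.22, 6.74, 6.21, 6.14 and 6.58 after SP600125. Both b arrays lay between the other DMSO and the other SP600125 arrays, with the SP600125 one the higher. Sema7a fell by 0.60 (adjusted p = 0.00187), and by 0.78 (SE 0.09) without the b arrays.

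Among the genes that fell and had a promoter window, only Sema6b held the AP-1 motif TGANTCA, the site bound by JUN and FOS dimers. Dpysl2, Dpysl3, Dpysl4, Plxna1, Plxna4 and Sema6a fell but had no window to search. The match, in capitals, begins 48 bases before a start of the gene (RefSeq, GRCm38.p6, chr17:56133853-56134102, − strand), in the second of 2 windows of this gene.
Sema6b: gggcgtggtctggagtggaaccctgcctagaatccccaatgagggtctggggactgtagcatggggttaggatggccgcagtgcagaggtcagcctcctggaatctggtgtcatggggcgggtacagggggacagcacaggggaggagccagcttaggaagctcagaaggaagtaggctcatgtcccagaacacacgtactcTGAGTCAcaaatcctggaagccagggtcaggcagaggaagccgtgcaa
Sema4c and Sema4d, which did not pass, also had 1 match each. The motif was in 7.5% of the windows of these genes, close to the 6.75% of all windows.

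**Figure D2:**
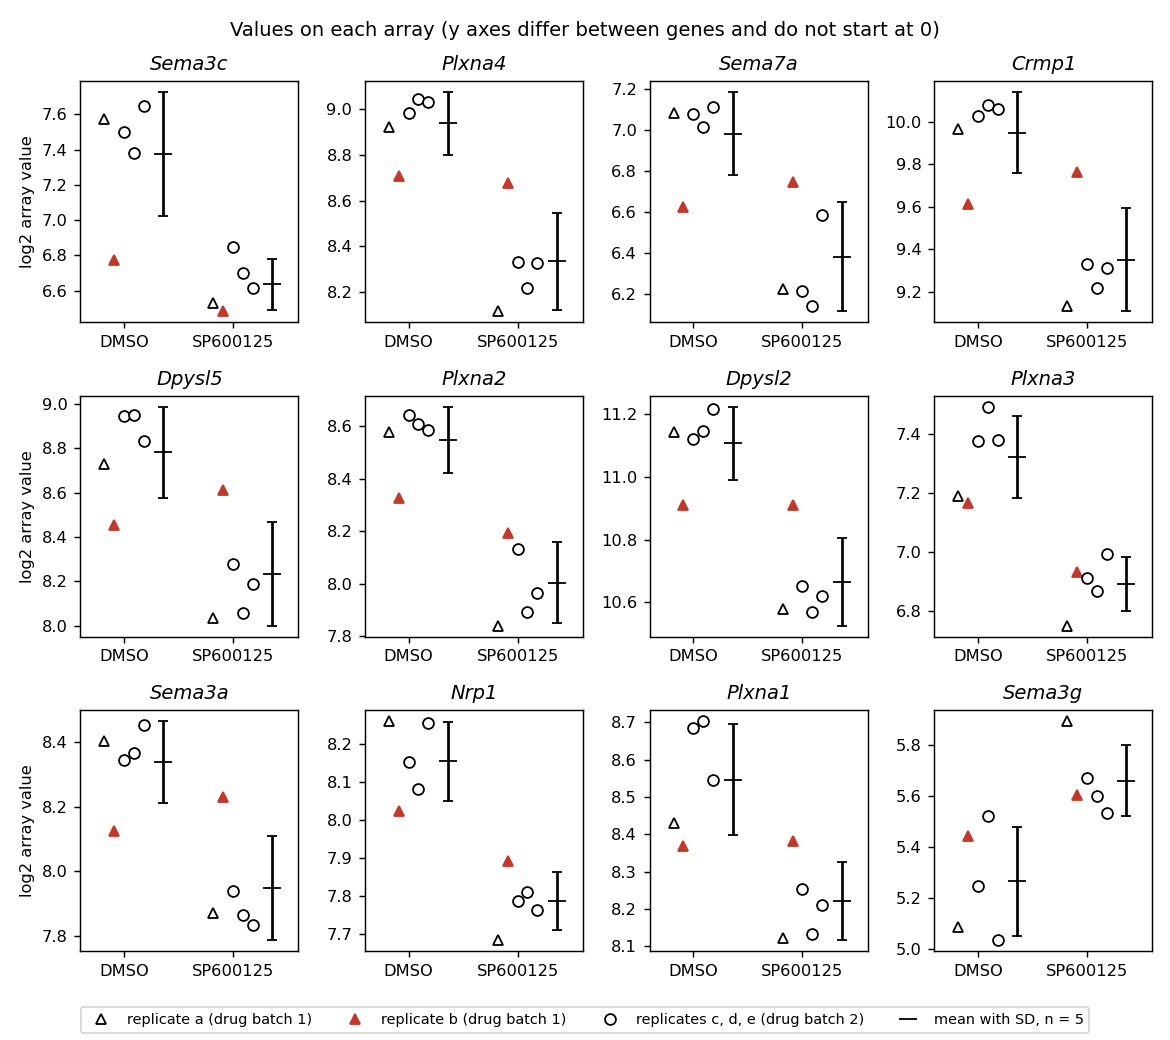
Log2 array values of 12 genes in each replicate; triangles are drug batch 1 with replicate b filled, circles are drug batch 2, and the bar beside each group is the mean with SD (n = 5). For Plxna4 and Dpysl2 the b arrays of both groups sit close to each other (8.71 and 8.68, and 10.91 and 10.91), while the remaining arrays are well apart.

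Both neuropilins, the ligand-binding receptors of class 3 semaphorins, fell. Nrp1 read 8.26, 8.02, 8.15, 8.08 and 8.25 after DMSO and 7.68, 7.89, 7.79, 7.81 and 7.76 after SP600125. Every SP600125 array lay below every DMSO array, the b arrays included. The fall was 0.37 (SE 0.07, adjusted p = 0.000972), with values close to each other in drug batch 1 (−0.35) and drug batch 2 (−0.38). Nrp2, which prefers Sema3f, fell by 0.34 (SE 0.08, adjusted p = 0.00564) with overlap between the groups.

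Of the 9 plexins, 7 fell and 2 did not pass, with a median change of −0.31. The class A plexins, the signalling partners of neuropilins, had a median change of −0.49. Plxna4, the partner of Nrp1 in sensory and sympathetic axons, read 8.92, 8.71, 8.98, 9.04 and 9.03 after DMSO and 8.12, 8.68, 8.33, 8.22 and 8.33 after SP600125. The groups did not overlap, but the b arrays differed by only 0.03. The fall was 0.60 (adjusted p = 0.000496). Plxna2 read 8.58, 8.33, 8.64, 8.61 and 8.59 after DMSO and 7.84, 8.19, 8.13, 7.89 and 7.96 after SP600125, without overlap, and fell by 0.54 (SE 0.08, adjusted p = 0.000343).

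Plxna3 had the smallest SE of the class A plexins. It read 7.19, 7.17, 7.38, 7.49 and 7.38 after DMSO and 6.75, 6.93, 6.91, 6.87 and 6.99 after SP600125, again without overlap. Its fall was 0.43 (SE 0.06, adjusted p = 0.000299). Plxna1, a receptor for Sema3a with Nrp1 and for class 6 semaphorins, read 8.43, 8.37, 8.68, 8.70 and 8.55 after DMSO and 8.12, 8.38, 8.25, 8.13 and 8.21 after SP600125. SP600125 replicate b lay just above DMSO replicate b and below the other DMSO arrays. The fall was 0.33 (SE 0.08, adjusted p = 0.00396), with −0.15 in drug batch 1 and −0.44 in drug batch 2.

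Class B plexins, receptors of class 4 semaphorins, had a median change of −0.14. Plxnb2 fell by 0.14 (SE 0.06) at an adjusted p of 0.0473, and Plxnb1 (−0.15, SE 0.06, adjusted p = 0.0542) and Plxnb3 (0.09, SE 0.08) did not pass. The Plxnb2 call was lost in 9 of the 10 fits that left out an array and without both b arrays (adjusted p = 0.0721), and its value turned to 0.03 after cyclic loess. Plxnc1, the receptor of Sema7a, fell by 0.31 (SE 0.08) and Plxnd1, the receptor of Sema3e, by 0.27 (SE 0.08), both without overlap between the groups. Whether class A and class B plexins differed in their change was not tested.

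All 5 CRMPs fell, with a median change of −0.44, and all 5 were also lower after cyclic loess. Crmp1 read 9.97, 9.62, 10.03, 10.08 and 10.06 after DMSO and 9.13, 9.76, 9.33, 9.22 and 9.32 after SP600125. The b arrays were in reverse order, and the other 4 arrays of each group did not overlap. Crmp1 fell by 0.60 (adjusted p = 0.00128), and by 0.78 (SE 0.06) without the b arrays. Dpysl2, or CRMP2, which binds tubulin dimers and passes on the Sema3a signal, read 11.14, 10.91, 11.12, 11.15 and 11.22 after DMSO and 10.58, 10.91, 10.65, 10.57 and 10.62 after SP600125. The groups did not overlap, but only just, since the b arrays differed by less than the second decimal, and the fall was 0.44 (SE 0.08, adjusted p = 0.000899). Dpysl5, the most divergent CRMP, read 8.73, 8.45, 8.95, 8.95 and 8.83 after DMSO and 8.03, 8.61, 8.28, 8.06 and 8.19 after SP600125. Here too the b arrays were in reverse order and the others apart, with a fall of 0.55 (SE 0.11, adjusted p = 0.00198), and of 0.73 (SE 0.07) without the b arrays. Dpysl4 fell by 0.38 (SE 0.07) and Dpysl3 by 0.30 (SE 0.09).

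Promoter windows of the CRMP genes in the RefSeq table were those of Crmp1 and Dpysl5, at chr5:37241808-37242057 (the first of 2 windows) and chr5:30711314-30711563 on the + strand of GRCm38.p6. They are shown because promoters of the CRMP genes were to be given where the table held them. Capitals mark GC boxes, GGGCGG on either strand.
Crmp1: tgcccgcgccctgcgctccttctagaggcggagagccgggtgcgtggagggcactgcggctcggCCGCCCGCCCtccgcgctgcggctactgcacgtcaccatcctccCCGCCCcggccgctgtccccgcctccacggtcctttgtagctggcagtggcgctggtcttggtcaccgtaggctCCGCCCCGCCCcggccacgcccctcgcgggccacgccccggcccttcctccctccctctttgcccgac
Dpysl5: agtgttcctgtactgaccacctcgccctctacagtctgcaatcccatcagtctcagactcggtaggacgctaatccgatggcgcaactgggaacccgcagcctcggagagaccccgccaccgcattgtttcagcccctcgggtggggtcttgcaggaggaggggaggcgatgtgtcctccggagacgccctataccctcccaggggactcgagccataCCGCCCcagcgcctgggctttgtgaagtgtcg
The Crmp1 window held 5 matches, some of them overlapping, and the Dpysl5 window 1.

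Promoter windows of 28 of the 36 genes, 40 windows in all, were searched over the 250 bases before the start, on both strands. Dpysl2, Dpysl3, Dpysl4, Plxna1, Plxna4, Sema3b, Sema3f and Sema6a had none in the table. The GC box GGGCGG was present in 75% of the windows, against 32.7% of all 32851 windows in the table, and the median content of G and C was 63.8% against 52.4%. The CCAAT box, the site of the factor NF-Y, was in 17.5% of the windows against 33.8% of all, the AP-1 motif TGANTCA in 7.5% against 6.75% and the E-box CACGTG in 5% against 6.02%. The cyclic AMP response element TGACGTCA was in 0 of the 40 windows and in 1.55% of all. Such matches describe these letters in these windows and no more.

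The fall of the family differed between arrays. Measured from the mean of the 5 DMSO arrays, the median of the 36 genes was −0.41, −0.31, −0.33 and −0.29 on SP600125 replicates a, c, d and e, but −0.16 on the b array of SP600125 and −0.13 on that of DMSO. Of the 23 genes that fell, all were lower on SP600125 replicate a than on DMSO replicate a, while the b arrays kept this order in 14. Among these 14 were Sema3c, Sema3d, Sema3e, Nrp1, Plxna3 and Plxnd1. The 9 others were Sema3a, Sema4a, Sema6a, Sema7a, Nrp2, Plxna1, Crmp1, Dpysl3 and Dpysl5. The 23 were called from these same arrays, so their order on replicate a is partly set by the selection. Called or not, 17 of the 36 genes were lower after SP600125 when only the b arrays were compared, against 48.8% of all genes. Without both b arrays 23 genes again fell and 2 rose, 24 of the 25 called genes were called again, and the median change was −0.39. Of all genes, 31.6% fell and 17.1% rose in that fit. The SP600125 arrays then lay below the DMSO arrays for 23 genes, against 28.2% of all genes.

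Neuronal markers moved with the family. Of the 12, 11 fell, with a median change of −0.50, and Map2 did not pass (−0.08). Their mean ranged from 8.82 to 9.19 on the DMSO arrays and from 8.45 to 9.06 on the SP600125 arrays. DMSO replicate b was 0.33 below DMSO replicate a at the median of these markers and 0.09 below it at the median of the 36 genes, and SP600125 replicate b was above SP600125 replicate a by 0.64 and 0.16. The fibroblast and endothelial markers ranged from 7.97 to 8.08 after DMSO and from 7.75 to 7.87 after SP600125 in their mean, and 4 of 10 fell. Astrocyte markers ranged from 8.53 to 8.59 and from 8.50 to 8.59, with 4 falls and 2 rises among 10. Oligodendrocyte lineage markers ranged from 6.90 to 6.99 and from 6.79 to 6.88, with 4 falls among 9. Neural progenitor markers ranged from 8.43 to 8.53 and from 8.22 to 8.35, with 2 falls among 8, 1 of them Nes (−1.34), the largest fall of all genes tested. Microglial markers ranged from 4.59 to 4.74 and from 4.74 to 4.91, with 3 rises among 8. Of the genes that rose there, Aif1 and Itgam were under the background limit. The median change of the microglial markers was 0.11, against 0.13 for genes of their level. Of all genes, 29.9% fell and 17% rose, and of those above background 46.5% fell and 7.8% rose. The part of these markers in the changes of the 36 genes was not tested.

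**Figure D3:**
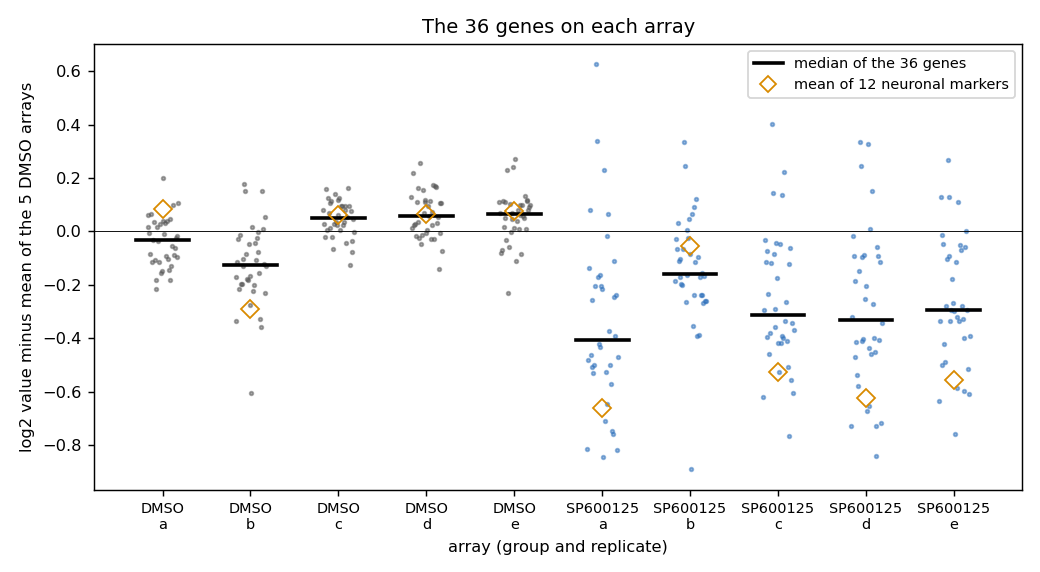
Each of the 36 genes on each array as a point, as log2 value minus the mean of the 5 DMSO arrays; the black line is the median of the 36 genes and the open diamond the mean of 12 neuronal markers. The medians of SP600125 replicates a, c, d and e lie between −0.41 and −0.29, and those of the b arrays at −0.13 (DMSO) and −0.16 (SP600125).

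All 25 genes that changed had the same sign in both drug batches, and 21 of the 23 falls were larger in drug batch 2. The share of larger falls in drug batch 2 among all genes that fell was not counted. The calls pool both batches, so the shared sign is partly set by the selection. Of all 36 genes, called or not, 32 had the same sign in both, and the share over all genes was not counted. Drug batch 1 holds the b arrays. At the median of the 36 genes, SP600125 minus DMSO was 0.02 for replicate b and −0.34 for replicate a. Over the 36 genes the median change was −0.20 in the first batch and −0.36 in the second, and over all genes −0.01 and −0.05. In drug batch 1 alone, with 2 arrays per group, limma called 0 of the 36 genes and 1 of all 19938. An unadjusted p under 0.05 was found there for 7 of the 36 (19.4%) and for 24.6% of all genes. In drug batch 2 alone, 24 fell and 2 rose, against 27.3% and 11.1% of all genes. The SP600125 arrays lay below the DMSO arrays inside both batches for 14 of the 36 genes, against 21.1% of all genes, and above them for Sema3b and Sema3g, against 10.2%. The interaction of treatment and batch passed for 0 of the 36 genes and for 0 of all genes with limma. At an unadjusted p under 0.05 it held for Sema4g, Dpysl5 and Plxna1 and for 9.29% of all genes.

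The size of a change on these arrays went with signal level. Genes within 0.25 of a member in mean value had a median change of −0.21 at the median over the 36 members, and 25 of the 36 lay below the median of their own level. Sema3e and Sema3d were at the dim end: genes of their level had median changes of 0.12 and 0.14, and both fell. Sema3c (−0.74 against −0.20), Sema7a (−0.60 against −0.17) and Crmp1 (−0.60 against −0.21) lay below genes of their level. Sema3a (−0.39 against −0.24), Sema6a (−0.29 against −0.24) and Plxna1 (−0.33 against −0.25) lay closer to it, and Plxnb2 (−0.14 against −0.24) above it. After cyclic loess, which removes a trend with level between arrays, 16 of the 36 genes fell, against 17.7% of all genes. The call of Plxnb2 was lost (0.03, limma adjusted p = 0.763). Also lost were the calls of Sema3a, Sema5a, Sema6a, Nrp2, Plxna1 and Plxnc1, with adjusted p-values from 0.0509 to 0.212. Those of Sema3c (−0.60), Sema3d (−0.43), Sema3e (−0.50), Sema7a (−0.50), Nrp1 (−0.18), Plxna2 (−0.36), Plxna3 (−0.28), Plxna4 (−0.43) and all CRMPs held, as did those of Sema4a, Sema6b and Plxnd1.

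**Figure D4:**
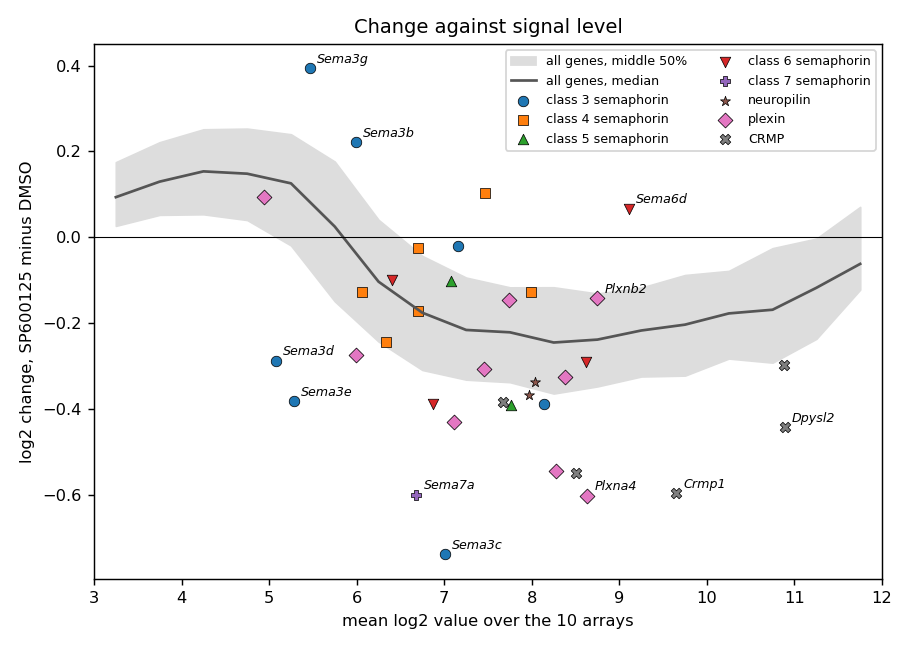
Log2 change of the 36 genes against their mean log2 value over the 10 arrays, by class; the line is the median change of all genes in steps of 0.5 in level and the band their interquartile range. The line lies above 0 for dim genes and below 0 for brighter ones, Sema3c, Sema7a, Crmp1, Plxna4 and Sema3e are among the genes below the band, and Sema3g, Sema3b, Sema6d, Sema4b and Sema3f among those above it.

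Partners of these receptors at the cell surface and inside the cell were followed through a list. It held 50 co-receptors, kinases, GTPases and their regulators, cytoskeletal effectors and adaptors, of which 47 were measured. Of these 28 (59.6%) fell, 2 rose and 17 did not pass, against 29.9% of all genes that fell and 46.5% of those above background, where 45 of the 47 lay. The median change of the 47 was −0.19, close to the −0.21 of genes of their level, and 24 of the 47 lay below the median of their own level. The kinases held 8 falls among 12, the GTPases and regulators 9 among 14, the cytoskeletal effectors 5 among 6, the co-receptors 6 among 11 and the adaptors 0 among 4. Cdk5r1, the p35 activator of the kinase Cdk5 that phosphorylates CRMPs, fell by 0.62 (SE 0.10), the Rac effector kinase Pak3 by 0.49 (SE 0.09) and Nrcam, an adhesion molecule that partners Nrp2, by 0.48 (SE 0.09). Cdk5 fell by 0.40 (SE 0.07) and Gsk3b, which also phosphorylates Dpysl2, by 0.34 (SE 0.08). The GTPases Rac1 (−0.08, SE 0.06) and Rhoa (−0.10, SE 0.05), on which plexin signalling converges, did not pass. The rises were those of Cd72 and Mst1r. Cd72, a B-cell receptor of Sema4d, was at the background here (0.27, SE 0.09). Mst1r, a receptor tyrosine kinase that pairs with plexins (0.20, SE 0.08), lay just above the background limit, with a DMSO mean of 5.27. The adjusted p of Mst1r was 0.049 with limma, and genes of its level had a median change of 0.11. After cyclic loess 12 of the 47 (25.5%) fell and 0 rose, against 17.7% of all genes that fell, and after quantile normalization 17 (36.2%) fell and 0 rose, against 22.5%.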

How the data were processed

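Log2 expression values of 10 arrays were used as deposited by the authors. The submitters' processing notes name oligo 1.14.0, an R package for such arrays. How background was corrected and probes were normalized and summarized is not given in the sources used here, and the log2 scale was taken from the values (1.90 to 13.83). Such values compress changes of dim genes. Precision is limited by how many arrays there are. Of 35556 probe sets, 21789 carried 1 gene symbol in the platform annotation, 1621 several and 12146 were unnamed there. Where a gene had several, the probe set brightest over all 10 arrays stood for it. All 36 members matched RefSeq by gene ID. Sema4d and Sema6b had 2 probe sets each, and those of Sema6b held identical values.

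A linear model was fitted to all 19938 genes (R 4.3.3; limma 3.58.1 with its moderated two-sided test) with treatment and drug batch as terms, and p-values were adjusted by Benjamini-Hochberg over all of them. The fit was tested on simulated data. Each change is the SP600125 level less the DMSO level, and its SE is limma's. Array values were given for the 8 largest changes past the threshold, the largest rises, and Sema3a, Nrp1, Plxna1, Crmp1 and Dpysl2. Those of Sema4g were added after its values were seen. Of the partner genes, the 3 largest falls and the rises were named by rule, and Cdk5, Gsk3b, Rac1 and Rhoa after their values were seen. The members and lists were chosen with earlier results of these data known. The motifs were chosen after the data were seen. Alternatives were other scalings, fits without the batch term, with a replicate block, with array weights, without dim genes, with all probe sets averaged, within each drug batch and without single arrays.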

Additional observations from a re-analysis of the deposited data

Results flagged for a closer look

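Values on each array were checked for arrays far from the other 4 of their group. Of 72 groups (36 genes in both treatments), 7 held such an array, and in all 7 it was a b array. By chance about 1 in 20 single groups would be flagged. The 72 groups share the same 10 arrays and are not independent, so this rate does not gauge the count. On DMSO replicate b, Crmp1 read 9.62 against 9.97 to 10.08 on the other DMSO arrays, Dpysl3 10.85 against 11.05 to 11.10, Plxna2 8.33 against 8.58 to 8.64, Sema6a 8.59 against 8.78 to 8.83 and Sema7a 6.62 against 7.01 to 7.11. On SP600125 replicate b, Dpysl2 read 10.91 against 10.57 to 10.65 and Sema3a 8.23 against 7.84 to 7.94.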

How the results depend on the processing

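In drug batch 1 alone, with 2 residual degrees of freedom, 0 of the 36 genes fell and 0 rose, but only 1 of all 19938 genes was called there, so this says nothing about these genes. Rises numbered 4 after quantile normalization and after cyclic loess and 1 after median centring on all probe sets. Changed signalling partners numbered 17 after quantile normalization and 12 after cyclic loess, against 30. Plxnb2 turned to 0.0264 after cyclic loess (limma, adjusted p = 0.763). The cause of these shifts was not tested. In the 10 fits without a single array, falls ranged from 22 to 24, rises stayed at 2 and the median change ranged from −0.37 to −0.27, and in the other fits falls ranged from 16 to 29. With the replicate block 22 genes fell and 2 rose, and Plxnb2 lost its call. The letters were not taken as pairs: deviations of same-lettered arrays correlated from −0.21 to 0.10 over genes, and 1 of 5 DMSO arrays correlated best with its own letter. Depth cannot be stated for arrays. Changes of genes near the background, such as Sema3d, Sema3g and Plxnb3, are the least certain in size.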

Other observations

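Genomic spans differed between the genes at the median. In RefSeq (GRCm38.p6), the 23 that fell spanned a median of 115 kb of genome, the 11 that did not pass 27.9 kb, and Sema3b and Sema3g, which rose, 11.6 and 12.5 kb. Over all tested genes with a length, the median was 17.7 kb, and over the 5957 genes that fell 29.8 kb. The ranges overlapped widely, from 15.8 to 479 kb for those that fell and from 12.1 to 578 kb for those that did not pass. Sema6d (578 kb), Sema5b (123 kb) and Sema4d (108 kb) were long without a call, and Dpysl4, Plxna3, Sema6b, Sema7a, Sema4a and Plxnb2 fell with spans of 15.8 to 26.5 kb. These spans are a description of the genes named here and were not tested against the changes.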
